A study of Homo sapiens with 4 samples.

Results

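The 6 genes described here, OSGIN1, KCTD6, RUNX1, OLFM1, SUSD3 and FMN1, were selected from the 33538 genes counted in both cell lines because they ranked among the first 5 genes raised by estradiol in T-47D breast cancer cells. OSGIN1, KCTD6 and RUNX1 were chosen on their fold change at 2 h against 0 h, and OLFM1, SUSD3 and FMN1 on that at 8 h against 0 h. Their T-47D changes at those times are therefore a description of the choice, while the values in the second cell line were not used by it. Ishikawa, a line from an endometrial adenocarcinoma, and T-47D, a line from a breast carcinoma, were profiled by droplet single-cell RNA sequencing after 10 nM 17beta-estradiol (E2) for 2, 4 or 8 h, with a vehicle (DMSO) culture as 0 h. According to the methods, both lines were held in hormone-depleted medium before induction, so the 0 h cells lacked added estrogen rather than growing in full serum. Cells of the 4 time points of a line were tagged with lipid-anchored barcodes (MULTI-seq), mixed and run as 1 library. Each time point of a line had 1 tag and no replicate was labelled, so it is treated as 1 culture. No comparison below has a replicate or a p-value. The Ishikawa feature list also held GFP and tdTomato reporter sequences, which the T-47D list does not.

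E2 enters cells and binds estrogen receptor alpha (ESR1), which then acts as a transcription factor at enhancers and promoters. Some targets respond within the first hours and fall back, while others keep building up, and the set of responding genes differs between breast and endometrial cells. The 6 genes have unrelated roles. OSGIN1 is an oxidative stress-induced growth inhibitor and a target of the stress-response factor NRF2. KCTD6 is a BTB-domain adaptor of the ubiquitin ligase scaffold CUL3. RUNX1 is a DNA-binding transcription factor that works with the partner CBFB. OLFM1 is a secreted olfactomedin-domain glycoprotein, SUSD3 is a small membrane protein with a sushi domain, and FMN1 is a formin, a protein that nucleates actin filaments and acts at cell junctions.

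The bases before the starts of 3 of the genes are shown because they compare a gene with a short-lived rise, the one gene with a match to an arm of the estrogen receptor motif and a gene that built up over time. Each run holds the 250 bases before a RefSeq start (GRCh38.p14), 5′ to 3′ on the strand of the gene, with motif matches in capitals. OSGIN1 lies at chr16:83953240-83966332, KCTD6 at chr3:58492096-58502360 and SUSD3 at chr9:93058701-93085133, and the windows are chr16:83952990-83953239, chr3:58491846-58492095 and chr9:93058451-93058700, all on the plus strand.
OSGIN1: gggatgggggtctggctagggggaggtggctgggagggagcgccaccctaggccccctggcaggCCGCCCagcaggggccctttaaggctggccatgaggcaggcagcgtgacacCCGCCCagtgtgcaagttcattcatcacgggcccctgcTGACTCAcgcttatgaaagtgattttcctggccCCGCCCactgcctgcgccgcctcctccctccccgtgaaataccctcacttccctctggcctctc
KCTD6: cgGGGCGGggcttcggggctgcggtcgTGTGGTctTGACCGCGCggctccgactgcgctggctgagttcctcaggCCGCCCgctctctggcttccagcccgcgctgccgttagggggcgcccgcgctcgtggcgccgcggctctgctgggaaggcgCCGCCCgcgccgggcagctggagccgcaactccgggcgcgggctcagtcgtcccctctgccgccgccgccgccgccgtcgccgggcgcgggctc
SUSD3: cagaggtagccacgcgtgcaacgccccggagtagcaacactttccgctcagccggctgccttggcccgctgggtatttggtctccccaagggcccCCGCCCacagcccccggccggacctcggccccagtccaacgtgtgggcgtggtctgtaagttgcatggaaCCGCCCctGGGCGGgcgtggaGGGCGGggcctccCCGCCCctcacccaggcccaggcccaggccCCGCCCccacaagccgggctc
The motifs were searched on both strands in 9 windows of the 6 genes and in the windows of 35116 RefSeq starts. OSGIN1 held 1 AP-1 element (TGANTCA), 97 bases before its start, a motif in 6.57% of all windows, and 3 GC boxes (GGGCGG). KCTD6 held 1 arm of the estrogen response element (GGTCA, read as TGACC), a motif in 32.6% of all windows, 215 bases before its start, which overlaps a match to the antioxidant response element core (TGACNNNGC), in 10.9% of all windows. It also held a RUNX site (TGTGGT), found in 11.0% of all windows. SUSD3 held 6 GC boxes and no other motif searched. GC boxes were present in 8 of the 9 windows, against 42.6% of all windows. The full palindromic estrogen response element, an inverted pair of that arm, was in 0 of the 9 windows and in 0.0399% of all windows, and the forkhead site (TGTTTAC) in 0 of 9 and 2.98%. The windows of RUNX1 on chromosome 21 (minus strand), of OLFM1 on chromosome 9 (plus strand, 3 starts) and of FMN1 on chromosome 15 (minus strand, 2 starts) held no motif other than GC boxes. The RUNX1 window, chr21:34888700-34888949, lies inside the gene (chr21:34787801-35049302). The bases before the outermost RUNX1 start were not searched.

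T-47D contributed 4626 cells (1525, 1207, 1341 and 553 at 0, 2, 4 and 8 h) and Ishikawa 4613 (776, 1480, 892 and 1465), with 12927799 to 33175309 and 15305038 to 30994433 UMIs (unique molecular identifiers, 1 for each captured transcript end) per pool. Levels are CPM, the counts of a gene in the summed cells of a pool divided by the UMIs of the pool and scaled as usual (counts-per-million). A gene was tested where its mean over the 4 pools of a line reached 10 CPM (7440 genes in T-47D, 7885 in Ishikawa) and was called where it differed by 1.5-fold or more on the log2(CPM + 1) scale. Bracketed ranges are exact 95% intervals that cover counting error only and not differences between cultures. All 10 epithelial and luminal markers passed that minimum in T-47D, and the endometrial markers PAX8, SOX17, EMX2 and HOXA10 were at 0 there. In Ishikawa 8 of 10 epithelial markers and 5 of 5 endometrial markers passed it, with the luminal factor GATA3 at 0 to 1 UMI. The 10 blood markers summed to at most 2.09 CPM in any pool of either line, and the 10 stromal and endothelial markers to 19.0 to 23.9 CPM in T-47D and 115 to 148 CPM in Ishikawa, where ACTA2 and COL1A1 passed the minimum. The libraries shared 80 barcodes, 5 of them among the cells kept.

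The genes chosen at 2 h rose and fell back within the time course in T-47D. OSGIN1 stood at 13.4, 60.2, 17.9 and 27.8 CPM at 0, 2, 4 and 8 h, from 446, 1598, 530 and 359 UMIs. Its 4 h level lay between those at 0 and 8 h. Its 2 h level was 4.48-fold that at 0 h (4.03 to 4.99), but by 4 h it retained 9.47% of that rise and was no longer past 1.5-fold (log2 fold change 0.39). Between 2 and 4 h OSGIN1 changed by -1.70 on the log2 scale, the lowest value of the 7440 genes, and only 0.202% of genes fell by 1.5-fold or more in that step. The step shares the 2 h pool with the choice of the gene. OSGIN1 then rose again from 4 to 8 h by 1.55-fold (1.35 to 1.78), a step in which 0.161% of genes rose by 1.5-fold or more.

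KCTD6 and RUNX1 had the same shape with a shallower descent. KCTD6 stood at 4.82, 22.5, 13.0 and 14.2 CPM at 0, 2, 4 and 8 h, from 160, 596, 386 and 184 UMIs. RUNX1 stood at 6.90, 30.8, 17.4 and 22.5 CPM, from 229, 817, 516 and 291 UMIs. Their 2 h ratios to 0 h were close, 4.66 (3.91 to 5.58) for KCTD6 and 4.46 (3.85 to 5.19) for RUNX1. From 2 to 4 h KCTD6 changed by -0.74 and RUNX1 by -0.79 on the log2 scale, which left 46.4% and 43.9% of the 2 h rise. Both were still called at 4 h (log2 fold change 1.27 and 1.22 against 0 h). From 4 to 8 h RUNX1 was 1.29-fold higher, with an interval above 1, while the interval of KCTD6 included 1 (ratio 1.09, 0.912 to 1.31).

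The genes chosen at 8 h were highest at 8 h. Ranking 1 set at 2 h and the other at 8 h favours such a difference in shape, which is therefore a description. OLFM1 stood at 12.1, 38.4, 52.4 and 91.3 CPM at 0, 2, 4 and 8 h, from 400, 1019, 1553 and 1180 UMIs, and none of the 4 intervals overlapped. It gained 33.3% of its 8 h rise by 2 h and 50.9% by 4 h, and its step from 4 to 8 h was the highest of the 7440 genes (log2 fold change 0.79, ratio 1.74, 1.61 to 1.88). That step shares the 8 h pool with the choice. SUSD3 stood at 2.56, 6.94, 13.9 and 20.7 CPM, from only 85, 184, 412 and 267 UMIs. It had the widest interval at 8 h, with a ratio to 0 h of 8.06 (6.29 to 10.4). From 2 to 4 h the level of SUSD3 rose 2.00-fold (1.68 to 2.40), a step in which 0.108% of genes rose by 1.5-fold or more. FMN1 rose early and then levelled off, at 16.6, 57.8, 80.3 and 84.7 CPM, from 552, 1533, 2381 and 1095 UMIs. It had reached 60.5% of its 8 h rise by 2 h and 93.5% by 4 h, and its 8 h level was 1.05-fold that at 4 h (0.981 to 1.13).

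**Figure D1:**
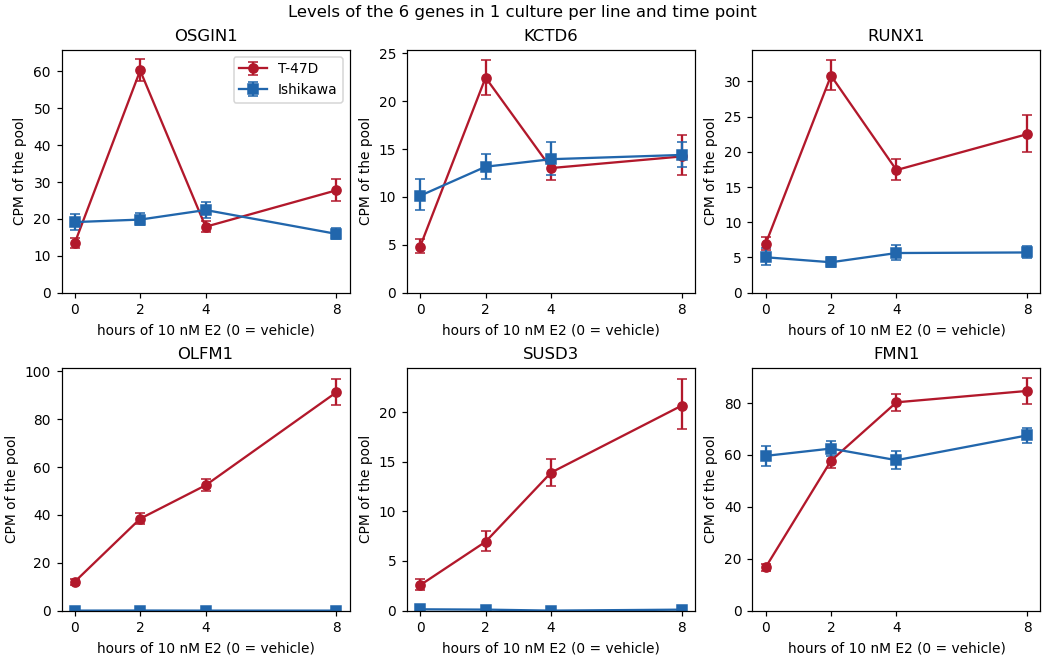
Pooled CPM of each gene against hours of E2 (0 is vehicle), with T-47D as circles and Ishikawa as squares and bars for exact 95% Poisson intervals. In T-47D OSGIN1, KCTD6 and RUNX1 are highest at 2 h and OLFM1, SUSD3 and FMN1 at 8 h, while no gene tested in Ishikawa reaches 1.5-fold, KCTD6 goes from 10.1 to 14.4 CPM there, and OLFM1 and SUSD3 lie at or near 0.

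All 6 genes were called higher after 2 and 8 h of E2, against 1.22% and 2.34% of tested T-47D genes. At 4 h 5 of 6 were, all but OSGIN1, against 1.33%. KCTD6, RUNX1 and SUSD3, at 4.82, 6.90 and 2.56 CPM at 0 h, passed the minimum of 10 CPM only through pools after E2. The 4 h comparison uses the same 0 h pool as the choice. These counts were therefore set in large part by the choice and the minimum, and are a description. The choice did not take every gene of those ranks, since MYB (rank 1) and CXCL12 (rank 5) at 2 h and CXCL12 (rank 1) and TFF1 (rank 4) at 8 h were left out. At the edge of the first 5 at 2 h, CXCL12 stood with a log2 fold change of 1.91 (25.6 against 6.09 CPM) and RNF223 just missed at 1.77 (34.5 against 9.43 CPM), followed by FMN1 at 1.74. At 8 h FMN1 ranked 5 at 2.28 and GREB1 just missed at 2.08 (47.3 against 10.4 CPM).

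In Ishikawa, which the choice did not use, only OSGIN1, KCTD6 and FMN1 passed the minimum level and could be called. Of these 0 were called at any time, where 0.786%, 0.634% and 0.812% of tested genes were called higher at 2, 4 and 8 h. Those shares would also give that count. By fold change at 8 h KCTD6 ranked 119, FMN1 1051 and OSGIN1 7302 of the 7885 tested genes. KCTD6 stood at 10.1, 13.2, 13.9 and 14.4 CPM at 0, 2, 4 and 8 h, and each E2 level was above 0 h beyond counting error, with a ratio of 1.42 (1.18 to 1.72) at 8 h. Its 4 and 8 h levels were close to those of T-47D, but its 0 h level was 10.1 rather than 4.82 CPM. OSGIN1 stood at 19.1, 19.8, 22.4 and 15.9 CPM, so that its 8 h level was below 0 h (ratio 0.833, 0.719 to 0.965) at the time when T-47D cells had 2.07 times their 0 h level (1.79 to 2.38). FMN1 was already abundant, at 59.7, 62.5, 58.0 and 67.6 CPM, and its 0 h level in Ishikawa was close to the 2 h level in T-47D.

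RUNX1 stayed at 5.03, 4.32, 5.63 and 5.71 CPM in Ishikawa, below the minimum, with intervals of all 3 ratios to 0 h that included 1. OLFM1 had 0, 1, 0 and 0 UMIs in the 4 Ishikawa pools and SUSD3 2, 3, 0 and 3. A count of 0 in the thinned cells allows a share of cells with an OLFM1 UMI of up to 0.444%, 0.230%, 0.359% and 0.225% at 0, 2, 4 and 8 h, which limits detection at this depth and not the cells that express the gene. No fold change is given for these genes. ESR1 itself was present in both lines, at 34.1 to 44.5 CPM in Ishikawa and 25.8 to 39.3 CPM in T-47D. Within T-47D it was 1.52-fold higher at 8 h than at 0 h (1.36 to 1.70), and within Ishikawa 0.797-fold (0.724 to 0.878).

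A higher pooled level can come from more cells with the transcript or from more transcripts in each such cell, so both were counted after each cell was thinned to the same depth. T-47D cells were thinned to 14495 UMIs, which left out 194, 125, 110 and 34 shallower cells at 0, 2, 4 and 8 h. OSGIN1 was detected in 16.3% (14.4 to 18.4) of the vehicle cells, in 43.7% (40.7 to 46.7) and 19.4% (17.2 to 21.7) of cells given E2 for 2 and 4 h, and in 31.0% (27.1 to 35.2) of the 8 h cells. Without thinning those shares were 23.9%, 51.9%, 27.6% and 41.2%. A cell positive for OSGIN1 held the most UMIs at 2 h, with means of 1.17, 2.11, 1.29 and 1.32 in time order. At 2 h 11.5% of cells held more OSGIN1 UMIs than the 99th percentile of the 0 h cells, which was 2, and at 4 h 1.14% did.

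OLFM1 went from 11.4% of cells to 32.3%, 40.0% and 59.9% (unthinned 16.5%, 41.3%, 51.0% and 70.3%). Its UMIs per positive cell rose from 1.38 to 1.65, 1.81 and 2.15. FMN1 went from 19.6% to 45.6%, 57.6% and 58.8% of cells (unthinned 25.7%, 53.7%, 68.3% and 70.0%), with 1.26, 1.87, 1.96 and 2.08 UMIs per positive cell. Both values rose for these 2 genes, as for OSGIN1 at 2 h. At counts this low both values rise with the mean count of a gene. Whether positive cells held more transcripts, beyond that, was not tested.

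SUSD3 gained mostly in the number of cells, from 3.53% to 8.87%, 16.2% and 23.5% (unthinned 4.66%, 12.0%, 22.1% and 33.8%). In thinned cells its share at 8 h was 6.66 times that at 0 h, but a positive cell held 1.06 times as many UMIs. Without thinning a cell positive for SUSD3 held 1.20, 1.27, 1.39 and 1.43 UMIs in time order. KCTD6 was detected in 7.06%, 26.2%, 17.5% and 17.7% of cells (unthinned 9.64%, 36.8%, 23.4% and 26.4%) and RUNX1 in 9.92%, 29.9%, 20.4% and 23.9% (unthinned 13.0%, 39.9%, 28.0% and 34.4%). Their UMIs per positive cell were at most 1.23 and 1.42, both at 2 h. A mean close to 1 UMI leaves little room for UMIs per positive cell to differ, so these values describe detection at this depth and not transcripts per cell.

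**Figure D2:**
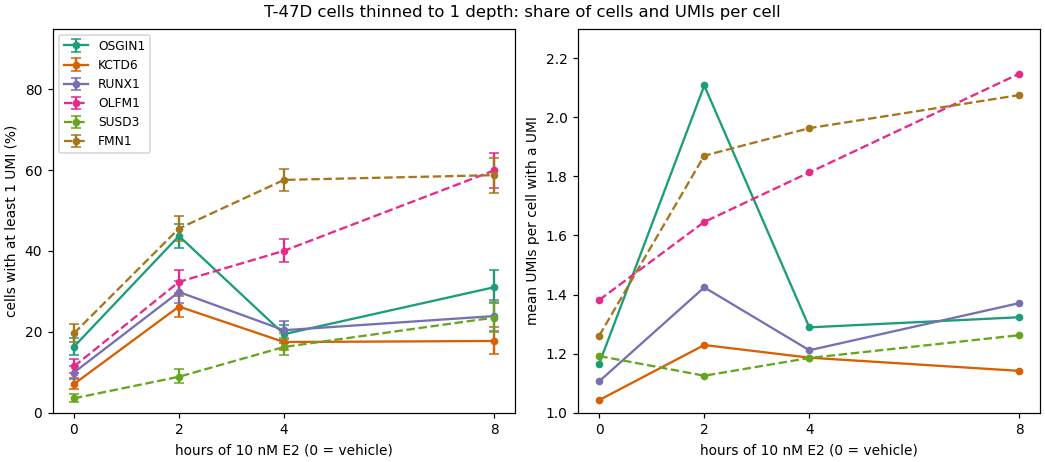
Share of T-47D cells with at least 1 UMI of each gene (left, %, bars for exact 95% Clopper-Pearson intervals) and mean UMIs in those cells (right, axis from 1) against hours of E2, in cells thinned to 14495 UMIs. OSGIN1 peaks in both panels at 2 h, OLFM1 rises in both to 8 h, and SUSD3 rises on the left while it stays between 1.13 and 1.26 on the right.

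In Ishikawa cells thinned to 12539 UMIs, with 100, 175, 57 and 129 cells left out, OSGIN1 was in 17.3%, 18.7%, 21.6% and 17.0% of cells in time order (unthinned 25.6%, 26.0%, 30.2% and 25.3%), and FMN1 in 42.2%, 44.1%, 44.4% and 45.5% (unthinned 53.6%, 58.0%, 57.8% and 59.7%). KCTD6 was in 11.4% of vehicle cells and 14.4%, 16.4% and 15.3% after E2 (unthinned 17.1%, 21.3%, 24.3% and 23.9%). Its intervals in thinned cells overlapped at all times. Without thinning, the 4 and 8 h intervals lay above the 0 h interval, and the 2 h interval overlapped it. RUNX1 stayed between 5.13% and 6.47% (unthinned 8.12% to 10.9%). SUSD3 had a UMI in 2, 1, 0 and 1 of the thinned cells.

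Each library held 1 cell line, so no cell type that lacks the genes was present to set a background. Barcodes with no time point call and fewer than 2000 UMIs in the T-47D library (2784 barcodes, median 1023 UMIs) held OLFM1 at 59.7 CPM, in 6.18% of barcodes, FMN1 at 52.8 CPM, in 5.06%, and OSGIN1 at 24.4 CPM, in 2.66%. KCTD6, RUNX1 and SUSD3 stood at 13.2, 20.4 and 16.2 CPM in these barcodes, in 1.44%, 2.08% and 1.72% of them. All 6 levels lay above the 0 h pool and below the highest pool of the gene. Since the 4 cultures shared the library, RNA outside cells would be common to all time points. Its part in the shares, most of all in the low 0 h shares of SUSD3 and KCTD6, was not tested.

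A T-47D cell held on average 0.678, 1.87, 1.71 and 2.15 of the 6 genes in time order. Cells with none of them made up 50.3% of the vehicle cells and at most 15.3% after E2, with 8.48% at 8 h. At 2 h 24 of 1082 cells held 5 of them and 2 cells all 6, and 5 were held by 12 of 1231 cells at 4 h, 16 of 519 at 8 h and 0 of 1331 among the vehicle cells. In Ishikawa the mean was between 0.765 and 0.889 at every time, and 33.1% to 40.7% of cells held none.

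Cell-to-cell spread was compared with the trend of all tested genes as the coefficient of variation (CV) against mean level, with a model like that of the study but on the log10 mean and on genes past the minimum level. OLFM1 had more spread than at least 93.9% of genes of similar level at each T-47D time point, and FMN1 more than at least 92.5%. OSGIN1 lay above 84.5%, 97.2%, 96.2% and 91.4% of them in time order. KCTD6 lay above 66.9% to 85.3% of them after E2, RUNX1 above 93.4% to 97.0% and SUSD3 above 69.0%, 95.6% and 93.4% at 2, 4 and 8 h. At 0 h RUNX1 lay above 34.5%, SUSD3 above 1.35% and KCTD6 above none. These 3 genes were below 10 CPM at 0 h, as was SUSD3 at 2 h (6.94 CPM). At those times they are compared with genes that passed the minimum through other pools. In Ishikawa FMN1 lay above at least 94.3% of genes at each time and OSGIN1 above 86.4% to 98.2%, so that high spread of both was present in the line where they were not called.

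Correlations between pairs of the genes across thinned T-47D cells were weak. The median Spearman rho of the 15 pairs was 0.0255, 0.0702, 0.0177 and 0.0479 at 0, 2, 4 and 8 h, and these cells share a library, a culture and a low depth per gene. The highest was OSGIN1 with FMN1 at 2 h, with rho of 0.206 over 1082 cells, where 55.0% of OSGIN1-positive and 38.3% of OSGIN1-negative cells held FMN1. That pair was near 0 at 0 h (0.00655) and 4 h (0.00716). OLFM1 with FMN1 held at 0.158, 0.160 and 0.159 at 2, 4 and 8 h, after 0.0945 at 0 h. In Ishikawa the 6 pairs of the 4 genes detected there lay between -0.0374 and 0.0775 at all times.

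Among all T-47D genes tested, the gene most like FMN1 across cells was PGR, the progesterone receptor gene and a classical estrogen target, with mean rho over the 4 time points of 0.270 (0.105 at 0 h and 0.320, 0.311 and 0.343 after E2). SLC9A3R1 (0.220) and TFRC (0.185) followed, and 99% of genes lay below 0.103. OLFM1 was most like SLC9A3R1 (0.207), SET (0.178) and IGFBP4 (0.170). OSGIN1 was most like KRT19 (0.182), XBP1 (0.179) and RPL19 (0.169), each with its highest value at 2 h (0.317, 0.325 and 0.265). RUNX1 was most like XBP1 (0.149), CDV3 (0.145) and GSE1 (0.120). For SUSD3 the first 3 were STARD10 (0.115), MDK (0.107) and AGR2 (0.0998), and 99% of genes lay below 0.0565. For KCTD6 they were XBP1 (0.0833), SLC30A5 (0.0703) and CDV3 (0.0673), and 99% of genes lay below 0.0468. These values are low and come from sparse counts, so no shared pattern is read from them. XBP1, a transcription factor of the secretory pathway, also ranked 4 for FMN1 (0.185).

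The correlations of OSGIN1 with lists of known targets were ordered differently in the 2 lines. In T-47D its rho with the summed UMIs of 40 known estrogen targets, members left out, was 0.0789, 0.398, 0.123 and 0.251 in time order. That with 28 NRF2 and oxidative stress genes was 0.0595, -0.00565, 0.0424 and 0.0305. In Ishikawa the order was the other way round, with 0.129, 0.242, 0.254 and 0.0914 for the NRF2 list and -0.00340, 0.0605, 0.102 and 0.0328 for the estrogen list. The 5 Ishikawa genes most like OSGIN1 were SQSTM1 (mean rho 0.149), GCLM (0.129), TXNRD1 (0.128), FTL (0.127) and FTH1 (0.125), each of them on the NRF2 list. They were looked up after the T-47D values had been seen. In T-47D the mean rho of OSGIN1 with SQSTM1 was -0.0196, with TXNRD1 -0.0692, with FTL 0.0458 and with FTH1 0.0290. Cells of each line share 1 library, and no test of the difference between lines was made. OSGIN1 also went with a lower mitochondrial share in T-47D cells (rho -0.0966, -0.176, -0.115 and -0.187 in time order), with weaker values in Ishikawa (-0.0653 to -0.00373).

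The list of estrogen targets also followed FMN1, with rho of 0.108 at 0 h and 0.346, 0.303 and 0.331 after E2, and OLFM1 with 0.0783, 0.261, 0.165 and 0.236. For RUNX1 the value was highest at 2 h (0.212) and for SUSD3 at 8 h (0.173), the times at which each was at its highest level. FMN1 had negative rho with the NRF2 list in T-47D, -0.187, -0.221 and -0.166 at 2, 4 and 8 h. In Ishikawa FMN1 reached 0.0985, 0.158 and 0.121 with the estrogen list at those times without being called. Its nearest genes there were PTMS, PCDH9 and CXXC5 (mean rho 0.204, 0.204 and 0.203), and PGR was below the minimum level.

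**Figure D3:**
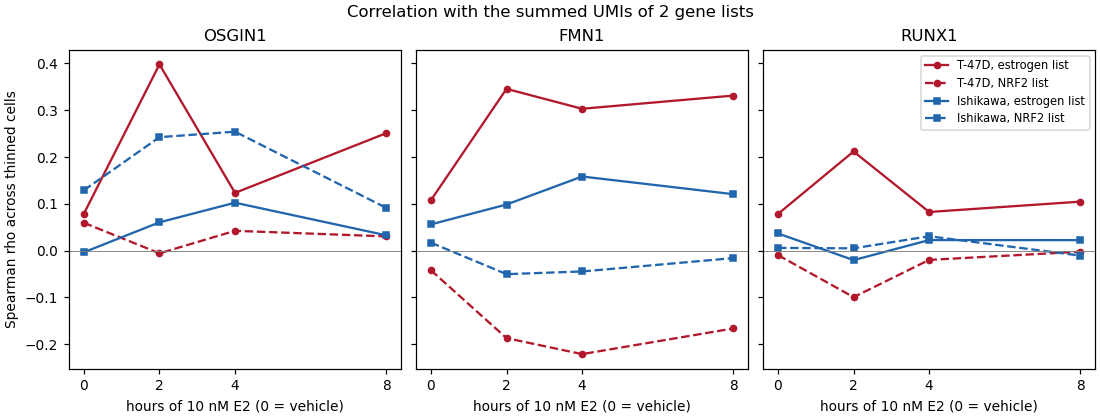
Spearman rho across thinned cells of OSGIN1, FMN1 and RUNX1 with the summed UMIs of the estrogen target list (solid) and the NRF2 list (dashed), against hours of E2, in T-47D (circles) and Ishikawa (squares). OSGIN1 goes with the estrogen list in T-47D, up to 0.398 at 2 h, and with the NRF2 list in Ishikawa, up to 0.254 at 4 h.

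OLFM1 was detected more often in T-47D cells that held a UMI of the proliferation genes TOP2A or MKI67. At 0 h 19.4% of 356 such cells (15.4 to 23.9) and 8.51% of the other 975 (6.84 to 10.4) held OLFM1. After E2 the shares were 38.2% and 30.3%, then 44.9% and 38.0%, and by 8 h 65.6% and 56.8%, with intervals that overlapped each time. Its rho was 0.103 to 0.144 with 20 S phase genes and 0.110 to 0.130 with 20 G2/M genes over the 4 times. In cells without either UMI the log2 fold change of OLFM1 was 1.89, 2.38 and 3.08 after 2, 4 and 8 h of E2, against 1.59, 2.03 and 2.82 in all cells. For the other 5 genes the intervals of the 2 kinds of cell overlapped at each time. Over the same course 0 of the 17 tested S phase genes were called at 2 h and 11 at 8 h, against 1.22% and 2.34% of all genes, with a median log2 fold change of 0.66 at 8 h against 0.01 for all genes.

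Relatives of the 6 genes were mostly not called. Of 28 tested estrogen targets, 21, 20 and 23 were called higher in T-47D at 2, 4 and 8 h, against 1.22%, 1.33% and 2.34% of all genes, and 0 lower, with medians of 1.04, 0.94 and 1.09. At 8 h the highest was the chemokine gene CXCL12, from 6.09 to 59.9 CPM, and the lowest RAB31, with a log2 fold change of 0.11. These lists were drawn up with results of these libraries known. With OSGIN1 not counted, 0 of 16 tested NRF2 targets were called higher at any time, with medians of -0.04, -0.05 and -0.08. The share of all genes called higher would also give that count, which does not set OSGIN1 apart. TXNRD1, a thioredoxin reductase, was called lower at 4 h (log2 fold change -0.59) and 8 h (-0.78), against 0.363% and 0.726% of genes. Of the 21 KCTD and CUL3 genes listed 7 were tested and 0 called at any time, a count that the share of all genes called would also give (at 8 h from KCTD1 at -0.11 to KCTD3 at 0.35), and CUL3 itself was at 67.6 to 70.5 CPM. Of the 13 other formins 3 were tested and 0 called, which likewise does not set FMN1 apart (at 8 h from DIAPH1 at 0.04 to DIAPH3 at 0.20).

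Of the 4 tested RUNX1 partners and corepressors, CBFA2T3 was called at each time in T-47D (log2 fold change 1.29, 0.77 and 0.92), with the other extreme at 8 h in TLE1 (-0.19). CBFA2T3, a corepressor of the ETO family, thus had its highest level at 2 h (30.6 CPM, against 11.9, 21.1 and 23.5 at 0, 4 and 8 h), as RUNX1 did. In Ishikawa CBFA2T3 went from 2.03 CPM at 0 h (31 UMIs) to 7.13, 7.08 and 8.42 CPM while RUNX1 did not rise, though it stayed below the minimum level. CBFB, the partner that RUNX1 binds DNA with, was below the minimum in T-47D (3.68 to 4.75 CPM). OLFML3, the 1 tested relative of OLFM1, was called at 8 h only (0.63). None of the relatives of SUSD3 passed the minimum.

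Some neighbours of KCTD6 and SUSD3 on the chromosome rose with them in T-47D, and the measurable neighbours of OSGIN1 were not called. AVEN, the only measurable neighbour of FMN1, lies 657067 bases away and was not called. The nearest 2 genes on each side were taken from the RefSeq gene table. PXK, 65969 bases from KCTD6, stood at 26.6, 55.3, 58.5 and 66.1 CPM at 0, 2, 4 and 8 h and was called at each time (log2 fold change 1.03, 1.11 and 1.28). PXK was also called in Ishikawa (0.63, 0.86 and 0.71), where KCTD6 rose by less. ACOX2, 2776 bases from KCTD6 and below the minimum level, had 41, 56, 127 and 71 UMIs in T-47D, a ratio of 4.44 at 8 h (2.98 to 6.70), and its Ishikawa intervals included 1. PDHB between PXK and KCTD6 rose by less and was not called (log2 fold change 0.46 at 8 h). FAM107A, the next gene beyond ACOX2, had at most 2 UMIs in a T-47D pool. Neither PXK nor ACOX2 fell back at 4 h as KCTD6 did.

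Around SUSD3, CARD19, 11084 bases away, stood at 23.7, 41.8, 58.9 and 60.0 CPM and was called at each time (log2 fold change 0.79, 1.28 and 1.30). FGD3, 22468 bases away on the other side, had 42, 67, 142 and 73 UMIs, a ratio of 4.46 at 8 h (3.01 to 6.68). NINJ1, the next gene beyond CARD19, was not called (0.22 at 8 h). ZNF484, the next gene beyond FGD3, was below the minimum level, with 15, 12, 12 and 2 UMIs. In Ishikawa, where SUSD3 had at most 3 UMIs in a pool, CARD19 was not called (at most 0.15) and the FGD3 ratios included 1. Across T-47D cells at 8 h rho was 0.143 for SUSD3 with CARD19 and 0.123 for KCTD6 with PXK, over 519 cells, and at most 0.0806 for either pair at earlier times. SUSD3 with FGD3 had 0.141 at 0 h and 0.0281 at 8 h. OSGIN1 with its neighbour HSBP1, which was not called, had 0.149 at 2 h. Values of this size are therefore not particular to neighbours that rose.

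The measurable neighbours of OSGIN1 (MLYCD, HSBP1 and MBTPS1), 26209 to 133503 bases away, lay between -0.09 and 0.06 on the log2 scale at all times in T-47D. AVEN, 657067 bases from FMN1, lay between -0.03 and 0.08. The genes nearer to FMN1 (GREM1, SCG5 and RYR3) had at most 6 UMIs in a T-47D pool, so their response could not be measured. NECAB2, which overlaps OSGIN1 and was below the minimum level, had 20, 25, 32 and 19 UMIs, a ratio of 2.44 at 8 h (1.23 to 4.81), and reads of overlapping genes may be hard to assign. The genes flanking OLFM1 and RUNX1 were below the minimum level in T-47D. Among them LINC00160, 50619 bases from RUNX1, had 6, 17, 26 and 15 UMIs. In these pools of unlike size its ratios to 0 h were 3.54 (1.33 to 11.0), 4.85 (1.95 to 14.4) and 6.42 (2.35 to 20.2). PPP1R26-AS1 by OLFM1 was lower at 2 h (ratio 0.601, 0.358 to 0.987). The intervals of SETD4 by RUNX1 and PPP1R26 by OLFM1 included 1 at each time.

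**Figure D4:**
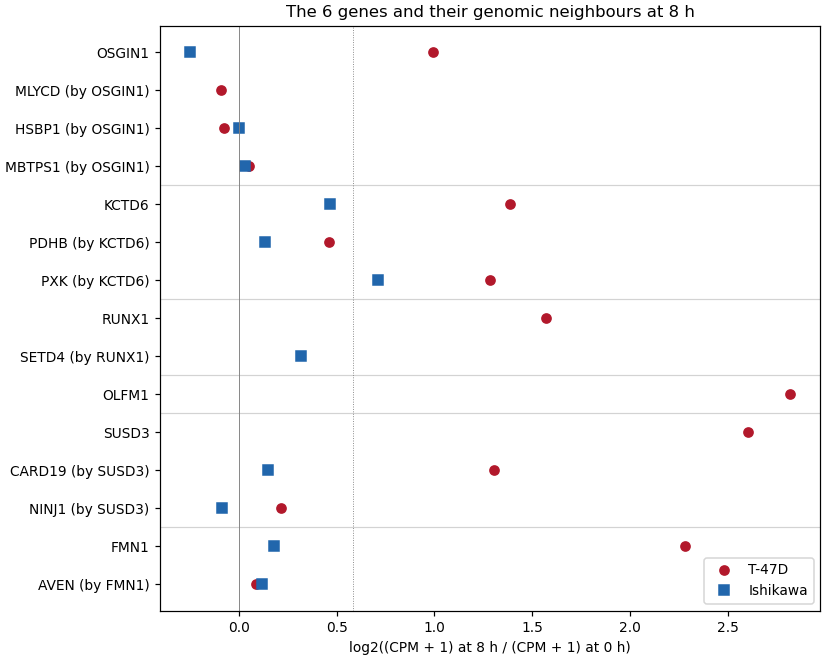
Log2 fold change at 8 h against 0 h of the 6 genes and of the neighbours that passed the minimum level, in T-47D (circles) and Ishikawa (squares), with a dotted line at 1.5-fold. PXK by KCTD6 and CARD19 by SUSD3 lie past the dotted line in T-47D, and PXK alone among the neighbours in Ishikawa. The neighbours of OSGIN1 and AVEN, 657067 bases from FMN1, lie near 0.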

How the data were processed

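Single-cell RNA was measured in 1 library per line (10x Genomics 3′ chemistry). The authors deposited UMI counts per gene and barcode, made with Cell Ranger 3.1.0 on hg38 per the submitters' processing notes, and MULTI-seq time point calls per barcode as a label column with no unit. Barcodes called as doublets or without a call were left out. Doublets within a time point carry 1 tag and were not identified. Cells were kept within the limits of the study's methods (UMIs from 7500 to 40000 in T-47D and from 8500 to 35000 in Ishikawa, genes from 1500 to 6000 and from 2700 to 6000, mitochondrial share below 20% and 7%). Counts were summed per line and time point and scaled to CPM. Fold changes were log2((CPM + 1)/(CPM at 0 h + 1)), and ratios were taken without the added 1. GFP and tdTomato counted towards totals but were not tested. For shares and correlations, cells were thinned without replacement to the 10th percentile of UMIs of the line (14495 in T-47D, 12539 in Ishikawa). Noise followed a generalized additive model (mgcv 1.9.3, R 4.3.3) of log2(CV + 1) on the log10 mean. TMM factors came from edgeR 4.0.16, and the rest from Python 3.11.15, scipy 1.17.1 and numpy 2.4.6. The code was checked on simulated counts with known fold changes. No test between groups was made, since each pool is 1 culture, and PCR or capture bias is not covered by the intervals.

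The 6 genes, the gene lists and the comparisons were chosen with earlier results of these data known. Named besides the members were the 3 genes nearest to each across T-47D cells, the 2 neighbours on each side, the ends and the called genes of each list, and the first genes outside the choice. Promoter sequences and gene positions came from RefSeq tables on GRCh38.p14, in which all 6 genes matched by symbol. A reference genome on another build was not used.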

Additional observations from a re-analysis of the deposited data

Results flagged for a closer look

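OSGIN1 at 8 h moved in opposite directions in the 2 lines. Its log2 fold change against 0 h was -0.25 in Ishikawa (ratio 0.833, 0.719 to 0.965) and 0.99 in T-47D (ratio 2.07, 1.79 to 2.38). Each value comes from 1 culture and the difference between lines was not tested.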

How the results depend on the processing

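No paired analysis was possible because each line and time point is 1 culture, and for the same reason no replicate could be left out. Of 144 recomputed T-47D fold changes 0 changed sign or crossed 1.5-fold (all called T-47D barcodes were kept, so those for every called barcode could not move), and of 108 in Ishikawa 5 changed sign (FMN1 in 4 and RUNX1 in 1) and 0 crossed it.
A pseudocount of 5 CPM, which by its construction lowers the change of low genes, gave log2 fold changes at 2 h of 1.82 for OSGIN1, 1.48 for KCTD6, 1.59 for RUNX1, 1.35 for OLFM1, 0.66 for SUSD3 and 1.54 for FMN1. At 4 h it gave 0.88 for KCTD6, 0.91 for RUNX1, 1.75 for OLFM1, 1.32 for SUSD3 and 1.98 for FMN1, and at 8 h 0.97, 1.21, 2.50, 1.76 and 2.05 in that order. Cells without TOP2A and MKI67 UMIs gave 1.89, 2.38 and 3.08 for OLFM1 at 2, 4 and 8 h and 0.58 for OSGIN1 at 4 h in T-47D, and 0.16 and 0.34 for FMN1 at 4 and 8 h in Ishikawa. With every called barcode FMN1 in Ishikawa came to -0.19, -0.33 and -0.062 at 2, 4 and 8 h, and in cells under 1% GFP to -0.069 at 2 h. The cause of these shifts was not tested.
With a minimum of 50 CPM, 1 of the 6 genes was called at each T-47D time, since fewer passed. The lower of the alternative fold limits gave 1 gene called at each Ishikawa time instead of 0, with 2.40%, 2.56% and 3.89% of Ishikawa genes and 3.41%, 4.49% and 7.11% of T-47D genes called higher at 2, 4 and 8 h. A fold of 2 gave 0.203%, 0.203% and 0.254% of Ishikawa genes, against 0.524%, 0.524% and 0.820% of T-47D genes, and a minimum of 50 CPM 0.402% and 0.329% in Ishikawa at 2 and 4 h. At 4 h in Ishikawa 50 genes were higher and 49 lower, against 60 and 36 with TMM factors and 61 and 32 with median-of-ratios factors. All 40 shares of cells moved without thinning, and 0 of 40 with another seed. Of the values of UMIs per positive cell, 31 moved without thinning and 9 did not, and 2 moved with another seed. Equal weights for the genes of a list, added after the data were seen, moved 6 of 80 correlations with lists. Among those moved was FMN1 with the estrogen list in Ishikawa, from 0.0985 to 0.0418 at 2 h and from 0.158 to 0.0920 at 4 h.
One culture per time point and shallow counts per cell limit these results. The low levels of SUSD3 and KCTD6 at 0 h make their ratios the least precise, and UMIs per positive cell cannot show small differences at this depth.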
